A study of Mus musculus with 1479 samples.

Results

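The lipid handling genes followed here, 7 in all, were measured in single cells of the urinary bladder of adult mice: the apolipoprotein genes Apoe and Apod, the phospholipid transfer protein gene Pltp, the cholesterol exporter gene Abca1, the lipoprotein lipase gene Lpl, the fatty acid translocase gene Cd36 and the fatty acid binding protein gene Fabp4. They were chosen by name, as 7 of the 46517 gene rows of the count table, and each symbol matched 1 Ensembl identifier. The study sorted mesenchymal cells of the bladder into wells, sequenced full-length cDNA with Smart-seq2, which counts reads and carries no molecular identifiers, and labelled each of 1479 cells with a cluster from 1 to 11. All cells came from male mice of 10-20 weeks of age, and their strain label was PdgfrbGFP (810 cells), Cspg4dsRED, C57BL6 (190 cells), PdgfraGFP or Acta2GFP. In the reporter lines the promoter named in the label drives a fluorescent protein, in PdgfraGFP as a knock-in of nuclear green fluorescent protein and in the others as a transgene. C57BL6 mice carried no reporter and their cells were sorted with antibodies, so each line also stands for a sort. The strains were backcrossed to C57Bl6/J, combinations of the strains were also used, cells with the endothelial surface protein CD31 were gated out, and for Acta2GFP mice elastase was added to the digest.

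The study assigned cluster 10 to mural cells, the contractile cells around vessels, and the other clusters to fibroblasts, with cluster 5 described as fibroblasts beneath the urothelium. The mural markers were highest in cluster 10 and the fibroblast markers in the others. Mural markers summed to 8173 to 13524 reads per 500000 reads over the lines in cluster 10 and to 66.5 to 183.3 in fibroblast clusters other than 5, with cluster 5 between at 450.5 to 756, while fibroblast markers summed to 563 to 2245 in cluster 10 and to 15669 to 22157 in those clusters. Levels below are the mean over the cells of a line of reads per 500000 endogenous reads, and a mean ± SD is taken over lines with at least 3 cells. The labels name no animal, so the line was the unit of every test on the assumption that lines were different mice, and the p-values measure the spread between lines only. The clusters were made from these same expression values, so a difference between clusters describes how far it repeats over lines and is not independent evidence that the cells differ.

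As background, lipids move between cells on lipoprotein particles. Apolipoproteins give these particles their structure and their receptor binding sites, ABCA1 loads cholesterol and phospholipid onto poor particles, PLTP shifts phospholipids between particles, and lipoprotein lipase at the vessel wall frees fatty acids from them. CD36 takes fatty acids up at the cell surface, and FABP4 carries them in the cytoplasm of adipocytes, macrophages and some endothelial cells. Apolipoprotein D is a lipocalin, a family unrelated to apolipoprotein E, that binds small lipids such as arachidonic acid.

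The members lie on separate chromosomes of GRCm38. Apoe (ENSMUSG00000002985, chr7:19696109-19699188), Apod (ENSMUSG00000022548, chr16:31296192-31314808), Pltp (ENSMUSG00000017754, chr2:164839518-164857711), Abca1 (ENSMUSG00000015243, chr4:53030787-53159895), Cd36 (ENSMUSG00000002944, chr5:17781690-17888801) and Fabp4 (ENSMUSG00000062515, chr3:10204088-10208576) are on the minus strand, and Lpl (ENSMUSG00000015568, chr8:68880491-68907448) is on the plus strand. To show what stands directly before the genes of the 3 secreted carriers and of the exporter Abca1, the 100 bases before the RefSeq start of each are given 5′ to 3′ on the gene's own strand. That start is also the end of the gene coordinates above, except for Pltp, where it lies 3 bases inside the gene, and positions are counted from it. They are RefSeq sequences of GRCm38.p6 at chr7:19699189-19699288 (Apoe), chr16:31314809-31314908 (Apod), chr2:164857709-164857808 (Pltp) and chr4:53159896-53159995 (Abca1), with a TATA box (TATAAA, same strand), a GC box (GGGCGG, both strands) or a CCAAT box (CCAAT, both strands) in capitals where one was found.
Apoe: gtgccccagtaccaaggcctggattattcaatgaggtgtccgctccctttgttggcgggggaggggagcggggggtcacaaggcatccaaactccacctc
Apod: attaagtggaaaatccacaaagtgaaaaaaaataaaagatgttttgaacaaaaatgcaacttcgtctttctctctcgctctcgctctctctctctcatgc
Pltp: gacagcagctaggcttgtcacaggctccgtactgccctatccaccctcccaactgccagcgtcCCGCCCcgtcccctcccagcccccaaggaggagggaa
Abca1: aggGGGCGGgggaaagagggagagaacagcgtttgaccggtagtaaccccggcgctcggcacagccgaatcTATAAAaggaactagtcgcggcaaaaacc
The Abca1 window held a TATA box 29 to 24 bases before the start and a GC box 97 to 92 bases before it. The Pltp window held a GC box on the opposite strand, 37 to 32 bases before the start. No match to the 3 motifs stood in the Apoe and Apod windows. Of 32851 promoter windows of that length, 3.80% held the TATA box, 24.7% the GC box and 18.9% the CCAAT box.

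Reads per cell ran from 50276 to 1446059 with a median of 214893, line medians from 120376 (PdgfraGFP) to 293659 (C57BL6), and cluster medians from 110330 (cluster 4) to 306895 (cluster 6). Pltp had a read in 1459 of 1479 cells, Apod in 1410, Apoe in 1348, Lpl in 1082 and Abca1 in 1010. Fabp4 and Cd36 were rare, with a read in 20.96% and 16.6% of cells, and only 33 and 10 cells reached 10 reads. Exon length here counts every base that lies in an exon of any annotated transcript. For Fabp4 these 4489 bases span the whole gene, so its level per kb is low for that reason too. Compared per kb of exon, the mean level in all fibroblast clusters was 369 reads per 500000 for Pltp, 211.99 for Apod, 119.05 for Apoe, 8.42 for Lpl, 7.63 for Abca1, 0.331 for Cd36 and 0.313 for Fabp4. In cluster 10 the level per kb was 17.2 for Fabp4, 16.8 for Apoe, 14.6 for Pltp, 11.7 for Apod, 1.69 for Lpl, 1.03 for Abca1 and 0.373 for Cd36. The Fabp4 value there rested on 1 C57BL6 cell, and with that line's level taken without the cell it was 1.79 per kb, below Apoe, Pltp and Apod. The order of the members per kb depends on the exon lengths used. With every cell thinned to 50000 reads, 96.9% of 1473 cells held a Pltp read, 90.5% an Apod read, 80.1% an Apoe read, 57.9% an Lpl read, 50.2% an Abca1 read, 8.55% a Fabp4 read and 6.11% a Cd36 read.

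**Figure D1:**
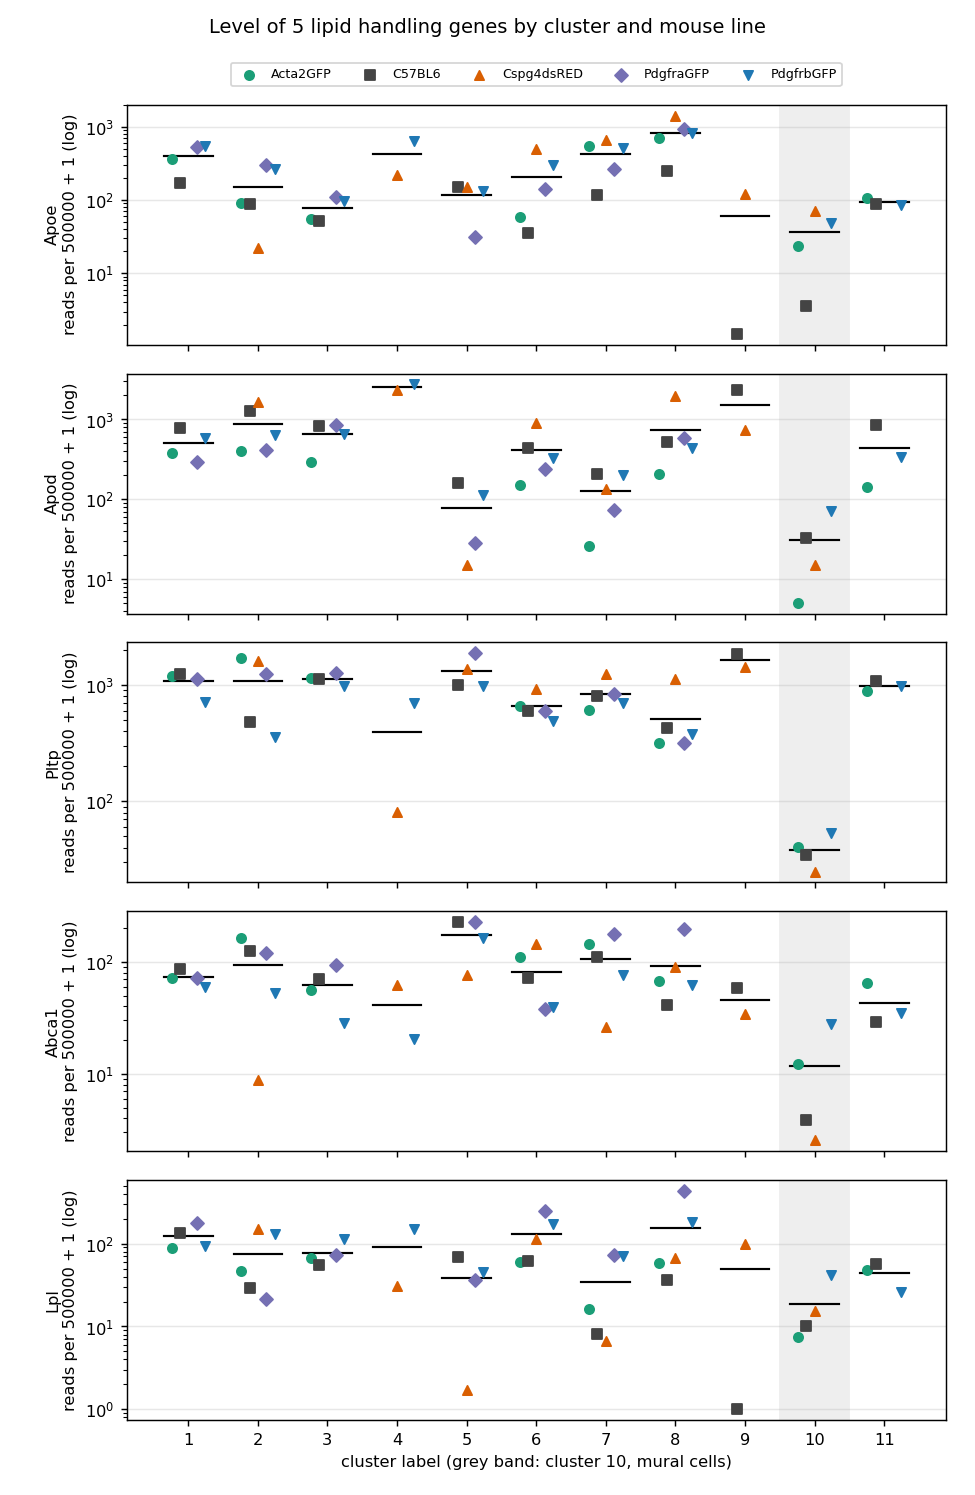
Level of Apoe, Apod, Pltp, Abca1 and Lpl in each cluster, in reads per 500000 reads plus 1 on a log axis, with 1 point per mouse line of at least 3 cells and a black bar for the mean over lines. In cluster 10 (grey band) the Pltp points lie between 23.97 and 52.7, below the points of all other clusters, while Apoe is highest in cluster 8 and Apod in cluster 4.

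The mural cells of cluster 10 had far fewer reads of the secreted lipid carriers than the fibroblasts. Pltp, Apod and Apoe fell, with log2 fold changes of -4.59, -4.67 and -3.24, and Fabp4 alone among the members rose, with 5.01. Of the 7 members, 3 passed the test as lower and 1 as higher, where 6.06% of the 13861 genes tested were lower and 2.28% higher (8.34% in either direction, 1156 genes) at an adjusted p below 0.05 and a log2 fold change of at least 2. The comparison asks which genes set mural cells apart from fibroblasts, and its 8 sums came from the 4 lines with cells of both classes, PdgfraGFP having none in cluster 10. The median gene had a log2 fold change of -0.81 itself, so a change relative to it is given for the members that passed.

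Pltp, which encodes the phospholipid transfer protein of plasma, had levels of 39.6 (Acta2GFP), 33.4 (C57BL6), 23.97 (Cspg4dsRED) and 52.7 (PdgfrbGFP) in cluster 10. In the fibroblasts of the same lines and of PdgfraGFP the levels were 935, 906, 1206, 701 and, in PdgfraGFP, 982. Every line's mural value was below every line's fibroblast value. The log2 fold change was -4.59 (SE 0.47, adjusted p = 2.69e-06, edgeR) and -3.77 relative to the median gene, and line by line it ran from -5.83 in Cspg4dsRED to -3.30 in PdgfrbGFP. Pltp shares 495 of its 2562 exon bases with Ctsa, which encodes the lysosomal cathepsin A, on the other strand, and without a stated strand setting reads there cannot be told apart. Ctsa had levels of 204.9 (Acta2GFP), 520.3 (C57BL6), 288.2 (Cspg4dsRED) and 185.9 (PdgfrbGFP) in cluster 10 against 452, 425.7, 602 and 389 in the fibroblasts of those lines, lower in 3 of 4 lines. In thinned cells, 6.4% of cluster 10 cells held at least 10 Pltp reads, against 23.8% in cluster 4, 70.3% in cluster 8 and 76.6 to 100% in the other fibroblast clusters.

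Apod had 4.07 (Acta2GFP), 31.8 (C57BL6), 14.1 (Cspg4dsRED) and 70.6 (PdgfrbGFP) reads per 500000 in cluster 10. Its fibroblast levels were 209.9, 642, 1016 and 456 in those lines and 408 in PdgfraGFP. The classes did not overlap, although the spread between lines was wide in both. The log2 fold change was -4.67 (SE 0.67, adjusted p = 0.000139, edgeR), -3.86 relative to the median gene, with line values from -6.11 in Acta2GFP to -2.23 in PdgfrbGFP.

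Apoe, the ligand by which lipoprotein remnants are cleared, had 22.99 (Acta2GFP), 2.62 (C57BL6), 70.7 (Cspg4dsRED) and 47.5 (PdgfrbGFP) reads per 500000 in cluster 10. Fibroblast levels were 192.2, 96.8, 315.8 and 381 in the same lines and 286.9 in PdgfraGFP. All mural values were again below all fibroblast values. The log2 fold change was -3.24 (SE 0.68, adjusted p = 0.00501, edgeR), -2.42 relative to the median gene, and -4.70 to -1.94 by line. Pltp, Apod and Apoe passed the test in all 14 alternatives tried, with adjusted p of at most 0.00569, 0.024 and 0.0457.

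Abca1 and Lpl pointed the same way without passing. Abca1, which exports cholesterol to lipid-poor apolipoproteins, had 11.3, 2.88, 1.54 and 26.97 reads per 500000 in cluster 10 (Acta2GFP, C57BL6, Cspg4dsRED, PdgfrbGFP) against 72.1, 90.5, 43.9 and 53.9 in the fibroblasts, and 134.97 in those of PdgfraGFP. The Abca1 log2 fold change was -3.58 (SE 1.14, adjusted p = 0.0582, edgeR), negative in 4 of 4 lines but only -0.95 in PdgfrbGFP. Lpl, which hydrolyses triglycerides of circulating lipoproteins, had 6.56, 9.19, 14.5 and 40.4 against 54.02, 46.2, 78.5 and 119.9, with 142.6 in PdgfraGFP fibroblasts. Its log2 fold change was -2.67 (SE 0.90, adjusted p = 0.0776, edgeR), also negative in 4 of 4 lines. Each of these 2 genes passed in 6 of 14 alternatives, with adjusted p from 0.00146 to 0.317 for Abca1 and from 0.00684 to 0.34 for Lpl. Cd36 had 0, 1.46, 2.02 and 1.87 in cluster 10, within its fibroblast range of 0.144 to 3.35 but for the line at 0, and did not pass (log2 fold change 0.85, SE 1.30, adjusted p = 0.811, edgeR).

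**Figure D2:**
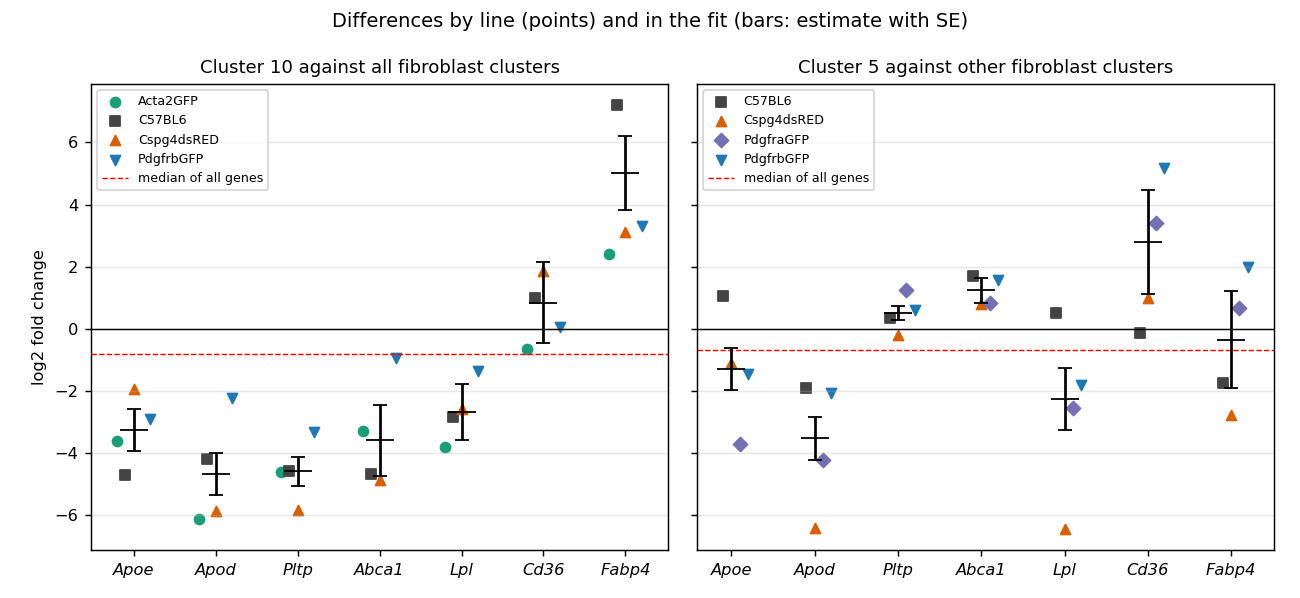
Log2 fold change of each member in cluster 10 against all fibroblast clusters (left) and in cluster 5 against the other fibroblast clusters (right), with 1 point per mouse line, a bar with SE for the fitted estimate and a dashed red line at the median of all genes tested. On the left Apoe, Apod, Pltp, Abca1 and Lpl lie below 0 in every line and Fabp4 above 0, and on the right Apod lies below 0 and Abca1 above 0 in every line.

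Fabp4, like Cd36, was carried by few cells. It had levels of 1.59 (Acta2GFP), 278.1 (C57BL6), 11.9 (Cspg4dsRED) and 16.4 (PdgfrbGFP) in cluster 10. In the fibroblasts it had 0, 1.46, 0.994 and 1.98 in those lines and 2.58 in PdgfraGFP, so the Acta2GFP mural value lay inside the fibroblast range. The log2 fold change was 5.01 (SE 1.19, adjusted p = 0.0135, edgeR), or 5.83 relative to the median gene, and positive in 4 of 4 lines (2.43 to 7.21). The C57BL6 value was carried by 1 cell, which held all but 1 of the reads in its 3 cells, and without it the level was 2.19. In Cspg4dsRED the reads came from 11 of 65 cells, in PdgfrbGFP from 20 of 45 cells, and in Acta2GFP from 1 of 12 cells, with 4 reads. Without the C57BL6 line the log2 fold change was 4.13 and no longer passed (adjusted p = 0.142), and over the 14 alternatives the adjusted p ran from 7.45e-06 to 0.142, with 11 past the threshold. Of the 33 cells with at least 10 Fabp4 reads in the whole series, 11 were in cluster 10.

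The sum of the 10 endothelial markers was also higher in cluster 10, at 291.97 to 509 against 40.03 to 65.4 in fibroblast clusters other than 5. The largest part in several lines was Esam (65.6 to 441), an adhesion protein of endothelial junctions, while Cdh5 and Kdr were at 0.471 or below and 0.594 or below. Pecam1, which encodes CD31, had 9.89 to 14.9 over the 4 lines of cluster 10, against 5.62 to 12.3 in those fibroblasts. Cldn5, Vwf and Egfl7 reached 34.7, 17.6 and 10.1 in cluster 10, against at most 2.70, 1.497 and 2.67 in those fibroblasts. Their cluster 10 values in Acta2GFP (0, 0 and 1.75) and C57BL6 (0, 1.46 and 2.47) were below these maxima. Tek went the other way, at 0 to 2.44 in cluster 10 against 13.1 to 40.7. Cdh5 and Kdr also reached more in those fibroblasts, at up to 4.996 and 8.52. Of the 10 genes, 3 to 10 had a read in a line of cluster 10. In C57BL6, Emcn stood at 216.3, from 2 of 3 cells. The part of endothelial RNA in the Fabp4 result was not tested. Adipocyte markers, the other usual source of Fabp4, summed to 4.02 to 19.9 in cluster 10 against 9.65 to 12.6 in those fibroblasts. Macrophage and leukocyte markers summed to 3.02 to 13.02.

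Within the fibroblasts, the apolipoproteins were the members that varied between clusters in a joint test. In this test of any difference between the 10 fibroblast clusters, which 6.01% of 15237 genes passed, Apod (adjusted p = 8.95e-06, edgeR) and Apoe (adjusted p = 0.00684) passed. Pltp (adjusted p = 0.168), Cd36 (0.230), Lpl (0.567), Fabp4 (0.768) and Abca1 (0.864) did not. Without cluster 5, when 2.54% of 14776 genes passed, Apod (adjusted p = 0.000358) and Apoe (0.00605) passed again. Leaving out Cspg4dsRED added Lpl and Pltp to the first test, leaving out Acta2GFP removed Apoe from the second, and leaving out PdgfrbGFP put Pltp in the place of Apoe in both.

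Apoe was highest in cluster 8, at 827 ± 422 (SD, n = 5 lines). By line its levels there were 710 (Acta2GFP), 250.5 (C57BL6), 1426 (Cspg4dsRED), 924 (PdgfraGFP) and 824 (PdgfrbGFP), in each of the 5 lines the highest of its clusters. Over single cells of cluster 8 the median was 573, with the 10th percentile at 44.2 and the 90th at 1814. Against the other fibroblast clusters except 5, Apoe rose by 2.18 on the log2 scale (SE 0.22, adjusted p = 0.0318, edgeR), in 5 of 5 lines (1.42 to 2.96), where 0.0217% of genes (3 genes) passed at a log2 fold change of at least 1. The call was lost when any line was left out, with adjusted p between 0.0813 and 0.156. Of thinned cells in cluster 8, 82.4% (exact 95% interval 76.1 to 87.7%) held at least 10 Apoe reads, followed by 61.9% in cluster 1, 56.1% in cluster 7 and 48.1% in cluster 6, with 16% in cluster 10 the lowest. Macrophage and leukocyte markers, from cells known for Apoe, summed to 1.21 to 24.7 in cluster 8 and to 4.30 to 13.8 in the fibroblast clusters other than 5 and 8, with 3 to 10 of the 10 genes read in a line of cluster 8. Csf1r had levels of 0.262 to 20.9 in cluster 8 and C1qa of 0 to 5.44, against at most 4.61 and 1.37 in those clusters. C1qb, Mrc1, Ptprc and Adgre1 reached 3.59, 1.32, 0.196 and 0.274, against 3.54, 0.622, 0.0846 and 0.170. Cd68, C1qc, Tyrobp and Fcer1g went the other way, reaching 0.930, 1.42, 0.282 and 0.868 in cluster 8 against 1.65, 2.18, 1.54 and 3.11. The part of macrophage RNA in the Apoe level was not tested. Mural markers were higher in cluster 8 than in those clusters in 4 of 5 lines, at 62.7 to 659.8 against 62.5 to 159.5, and their part was not tested either. Fibroblast markers summed to 15519.8 to 18552 in cluster 8.

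Below cluster 8 came clusters 4 (427 over 2 lines, 215.9 and 637), 7 (419 ± 221.5, n = 5), 1 (405 ± 178.4, n = 4), 6 (206.6 ± 195.1, n = 5), 2 (152.2 ± 121.7, n = 5), 5 (116.2 ± 57.6, n = 4), 11 (91.99 ± 11.47, n = 3), 3 (77.4 ± 29.7, n = 4), 9 (59.98 over 2 lines) and 10 (35.9 ± 29.6, n = 4). In cluster 9, Apoe was at 0.494 in C57BL6 and 119.5 in Cspg4dsRED, and it passed as lower than in the other clusters (log2 fold change -4.11, SE 0.69, adjusted p = 1.46e-05, edgeR; 0.0454% of genes passed), on 2 lines that differed by -6.46 and -2.48. The C57BL6 value was 1 read in 3 cells, and the call held in 6 of 8 alternatives, with adjusted p from 3.79e-05 to 1. Cluster 3, the largest cluster, had low Apoe in 4 of 4 lines (log2 fold change -1.83, SE 0.18) that missed the threshold (adjusted p = 0.0721, edgeR; 0.00688% of genes passed). For cluster 1 the log2 fold change was 1.22 with an adjusted p of 0.169, where 0.0284% of genes passed.

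Apod was ordered otherwise. It was highest in cluster 4, at 2526 ± 307.97 over the lines Cspg4dsRED (2308) and PdgfrbGFP (2744), and 2 PdgfraGFP cells of that cluster averaged 8096. Cluster 9 followed with 1529.5 over 2 lines, then cluster 2 (875 ± 561, n = 5), cluster 8 (739 ± 688, n = 5), cluster 3 (659 ± 258.6, n = 4), cluster 1 (505 ± 214.04, n = 4), cluster 11 (442 ± 364, n = 3) and cluster 6 (412 ± 297.3, n = 5). Clusters 7 (127.4 ± 79.3, n = 5) and 5 (77.6 ± 68.4, n = 4) were lowest among the fibroblasts, above the mural cluster 10 at 30.1 ± 29.3 (n = 4).

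The Apod difference of cluster 7 passed with each line left out in turn. Apod levels there were 24.9 (Acta2GFP), 208.7 (C57BL6), 131.7 (Cspg4dsRED), 73.2 (PdgfraGFP) and 198.6 (PdgfrbGFP). Apod fell by 2.43 on the log2 scale against the other fibroblast clusters except 5 (SE 0.26, adjusted p = 0.00897, edgeR), in 5 of 5 lines (-3.16 to -1.33), where 0.471% of genes passed. It passed in 13 of 14 alternatives, with adjusted p from 2.53e-10 to 0.0525. Apoe, with a mean level of 419 in the same cells, did not pass there (log2 fold change 0.63, SE 0.32, adjusted p = 0.661), and its line values ran from -0.53 in PdgfraGFP to 1.79 in Acta2GFP. Lpl was also lower there in 5 of 5 lines (log2 fold change -2.46, SE 0.53), without passing (adjusted p = 0.122, edgeR).

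In cluster 4 Apod rose by 2.09 on the log2 scale (SE 0.38, adjusted p = 1.93e-05, edgeR), with 1.40 in Cspg4dsRED and 2.78 in PdgfrbGFP, where 0.746% of genes passed. Pltp passed as lower in cluster 4 (log2 fold change -2.28, SE 0.60, adjusted p = 0.0272), but its lines opposed each other, at -4.75 in Cspg4dsRED and 0.19 in PdgfrbGFP, with levels of 80.2 and 703. The cluster rested on 17 and 4 cells in these lines, and the calls held in 3 of 7 alternatives for Apod and 1 of 7 for Pltp. No member passed in clusters 1, 2, 3, 6 and 11, where 0.198% of genes passed in cluster 2, 0.0147% in cluster 6 and 0.0303% in cluster 11. At an unadjusted p below 0.05, edgeR gave 8 member differences there, and of the other tools DESeq2 called Apoe in cluster 3 and limma none.

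Cluster 5, the fibroblasts beneath the urothelium, had low Apod and the highest mean levels of Abca1 and Cd36, of which only the Apod difference passed. The comparison with the other fibroblast clusters used 8 sums of 4 lines, and 0.879% of 13988 genes passed (0.536% lower and 0.343% higher), with a log2 fold change of -0.69 for the median gene. Apod had 157.6 (C57BL6), 14.1 (Cspg4dsRED), 27.6 (PdgfraGFP) and 111.1 (PdgfrbGFP) reads per 500000 in cluster 5. The other fibroblasts had 684, 1039, 474 and 473 in those lines and 209.9 in Acta2GFP, with no overlap. The log2 fold change was -3.52 (SE 0.70, adjusted p = 0.0450, edgeR), or -2.83 relative to the median gene, with line values from -6.41 to -1.90. The mural markers summed to 450.5 to 756 in cluster 5, against 66.5 to 183.3 in the other fibroblasts. The sum was led by Acta2, the smooth muscle actin gene, at 273.04 to 575 against 31.4 to 97.9. Tagln was also higher, at 45.3 to 96.6 against 6.83 to 16.2. Des went the other way, at 0.401 to 1.23 against 5.85 to 43.6. The ranges of the other mural markers overlapped. Of these, Myh11, Cspg4, Notch3, Mcam and Cnn1 reached more in cluster 5. Rgs5 and Kcnj8 reached less there, 1.55 and 1.79 against 6.93 and 12.98. The part of the mural markers in the low Apod was not tested. Without Cspg4dsRED, which had 3 cells in cluster 5, the log2 fold change was -2.71 (adjusted p = 0.0679), without PdgfraGFP it was -3.16 (adjusted p = 0.0721), and the adjusted p ran from 2.67e-05 to 0.106 over all 14 alternatives.

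Abca1 stood out in single cells of cluster 5, whose median was 145.5 reads per 500000 with a 10th to 90th percentile range of 0 to 477. In every other fibroblast cluster the median cell, pooled over lines, held 0 to 20.99. By line the cluster 5 median was 171.05 (C57BL6), 145.5 (PdgfrbGFP), 81.02 (PdgfraGFP) and 3.47 (Cspg4dsRED, 3 cells), and Acta2GFP, with no cluster 5 cells, had 123.6 in cluster 7. Of thinned cluster 5 cells 61.8% (exact 95% interval 49.98 to 72.8%) held at least 10 Abca1 reads, against 30.7% in cluster 7 and at most 27.6% in each other cluster. Levels by line were 224.97 (C57BL6), 75.8 (Cspg4dsRED), 225.1 (PdgfraGFP) and 160.9 (PdgfrbGFP) in cluster 5, and 78.8, 43.1, 119.1 and 48.7 in the other fibroblasts of those lines, with 72.1 in Acta2GFP. Abca1 was higher in cluster 5 in 4 of 4 lines, although the ranges over lines overlapped. The log2 fold change was 1.24 (SE 0.41), below the threshold of 2 and not past the test (adjusted p = 0.227, edgeR). Over 14 alternatives it ran from 1.08 to 1.94 and the adjusted p from 0.0308 to 0.798, below 0.05 in 2 of them.

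Pltp in cluster 5 had 1007, 1369.7, 1867 and 983 (C57BL6, Cspg4dsRED, PdgfraGFP, PdgfrbGFP) against 897, 1202, 827 and 687, a log2 fold change of 0.50 (SE 0.22, adjusted p = 0.445, edgeR). Apoe had 151.2, 149.7, 30.7 and 133.4 against 92.1, 319.5, 331.98 and 393 (log2 fold change -1.29, SE 0.68, adjusted p = 0.587), higher in C57BL6 and lower in the others. Lpl had 68.2, 0.697, 34.9 and 44.4 against 44.3, 80.2, 161.5 and 123.6 (log2 fold change -2.26, SE 0.99, adjusted p = 0.454), likewise with C57BL6 apart. None of these 3 differences passed the test. Adipocyte markers summed to 658 to 1344 in cluster 5, mostly from Car3, which encodes carbonic anhydrase 3 (646 to 1344). Lipe, the hormone-sensitive lipase gene, had levels of 0 to 125.5 with a read in 18 of 76 cells, and the other 8 of the 10 markers, among them Adipoq, Plin1, Cidec and Lep, had 0 reads there.

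Pltp was high in nearly every fibroblast cluster. Its mean level was 1623 in cluster 9, 1307 ± 413 in cluster 5, 1129.6 ± 122.1 in cluster 3, 1079.8 ± 626 in cluster 2, 1071 ± 242.8 in cluster 1, 980.2 ± 103.03 in cluster 11, 835 ± 243.7 in cluster 7, 652 ± 161.3 in cluster 6, 512 ± 346 in cluster 8 and 392 ± 441 in cluster 4. Cluster 10, at 37.4 ± 12.04, stood below cluster 4 by 3.16 on the log2 scale in a fit of all clusters (adjusted p = 0.000403, edgeR). This was the only 1 of 70 differences between clusters next to each other in the order of a member that passed the test. The other steps did not pass, the nearest being Apod from cluster 6 to cluster 7 (log2 difference 1.92, adjusted p = 0.115), lower in cluster 7 in 5 of 5 lines. Clusters next to each other are the closest in level by choice. Over all 55 pairs of clusters, Apod passed in 22, Pltp in 10, Apoe and Fabp4 in 7 each, Abca1 in 3 and Lpl and Cd36 in 0. Over all genes and pairs, 1.05% of differences passed.

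Lpl had its highest mean levels in clusters 8 (154.3 ± 164.3, n = 5), 6 (130.4 ± 80.5, n = 5) and 1 (122.7 ± 42.5, n = 4), and its lowest among fibroblasts in clusters 5 (37.1 ± 27.99, n = 4) and 7 (33.8 ± 33.7, n = 5). The cluster 8 mean rested on PdgfraGFP at 430.0, where the other lines had 35.5 to 182.2. Over single cells pooled from all lines the median was highest in cluster 6, at 104.7, which rested on PdgfrbGFP (134.4), while in PdgfraGFP it was 39.8 in cluster 6 and 298.7 in cluster 8 and in the other lines 9.09 or below in both. Of the thinned cells of cluster 6, pooled over lines, 50.8% held at least 10 Lpl reads, against 43.4% in cluster 8, 20.6% in cluster 7 and 8.8% in cluster 10. After cluster 5, Abca1 had mean levels of 106.1 ± 58.95 in cluster 7, 92.96 ± 62.03 in cluster 2, 90.9 ± 61.8 in cluster 8 and 40.1 to 79.9 in the other fibroblast clusters.

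Cd36 and Fabp4 followed the plate as well as the cluster. Plate bladder_881s held only PdgfrbGFP cells and had the deepest cells, with a median of 384099 reads, and 61.5% of its cells had a Cd36 read and 68.7% a Fabp4 read. On plate bladder_074s, of the same line and with a median of 267313 reads, 0 of 365 cells had a Cd36 read, which allows a share of up to 0.822%, and 13 (3.56%) had a Fabp4 read. The other plates lay between, with a Cd36 read in 3.95% (bladder_352s), 18.9% (bladder_443s), 1.60% (bladder_515s) and 20.8% (bladder_689s) of cells. Fabp4 reads were in 11.9%, 30.5%, 1.92% and 18.5% of the cells on these plates. Most of the cells on plate bladder_881s held 1 to 9 reads, 58.8% for Cd36 and 61.8% for Fabp4. Cells with fewer than 10 Cd36 reads held 1 to 9 reads more often when they shared a plate row or column with a cell of at least 100 reads (76.2%, exact 95% interval 63.8 to 86.02%) than when not (55.2%, 47.9 to 62.4%). For Fabp4 the shares were 50% and 50.6%. The same comparison gave 57.99% against 29.4% for Abca1 and 56.3% against 16.4% for Lpl. Both Cd36 cells of at least 100 reads were on plate bladder_881s, while the shares of the other 3 genes were pooled over plates that differ in depth. The part of plate, depth and reads from neighbouring wells in these low counts was not tested.

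The cells with many Cd36 reads were nevertheless mostly of cluster 5. The 6 cells with the most reads, at least 61 each, were all in that cluster, 5 of them PdgfrbGFP cells on plate bladder_881s and 1 a PdgfraGFP cell on plate bladder_689s, and 7 of the 10 cells with at least 10 reads were there. In cluster 5 the level was 0.376 (C57BL6), 1.16 (Cspg4dsRED), 16.5 (PdgfraGFP) and 26.5 (PdgfrbGFP), against 0.454, 0.190, 1.03 and 0.575 in the other fibroblasts. PdgfraGFP had 75 reads in 3 of 22 cells, 72 of them in 1 cell, and its level without that cell was 0.522. PdgfrbGFP had 852 reads, all from 19 of 24 cells on plate bladder_881s (level 39.7), with 0 reads in 7 cells on plate bladder_074s and 5 on plate bladder_515s. The difference did not pass (log2 fold change 2.80, SE 1.68, adjusted p = 0.670, edgeR), with line values from -0.13 to 5.17, and without plate bladder_881s Cd36 no longer passed the filter on low counts. DESeq2 called it (adjusted p = 0.0407), the only 1 of 12 alternatives to do so, in which the adjusted p reached 0.964.

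In the same way the Fabp4 level of cluster 10 in PdgfrbGFP was 29.4 on plate bladder_881s (16 of 20 cells), 7.46 on plate bladder_074s (1 of 4 cells) and 5.80 on plate bladder_515s (3 of 21 cells). In Cspg4dsRED it was 41.8 on plate bladder_689s (5 of 16 cells) and 2.13 on plate bladder_352s (6 of 49 cells). Without plate bladder_881s the Fabp4 log2 fold change was 4.87 (adjusted p = 0.00928, edgeR), close to the value with it. In cluster 5, Fabp4 had levels of 1.03, 0, 2.65 and 8.06 against 1.499, 1.02, 2.57 and 1.68 and did not pass (log2 fold change -0.35, SE 1.56, adjusted p = 0.969).

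**Figure D3:**
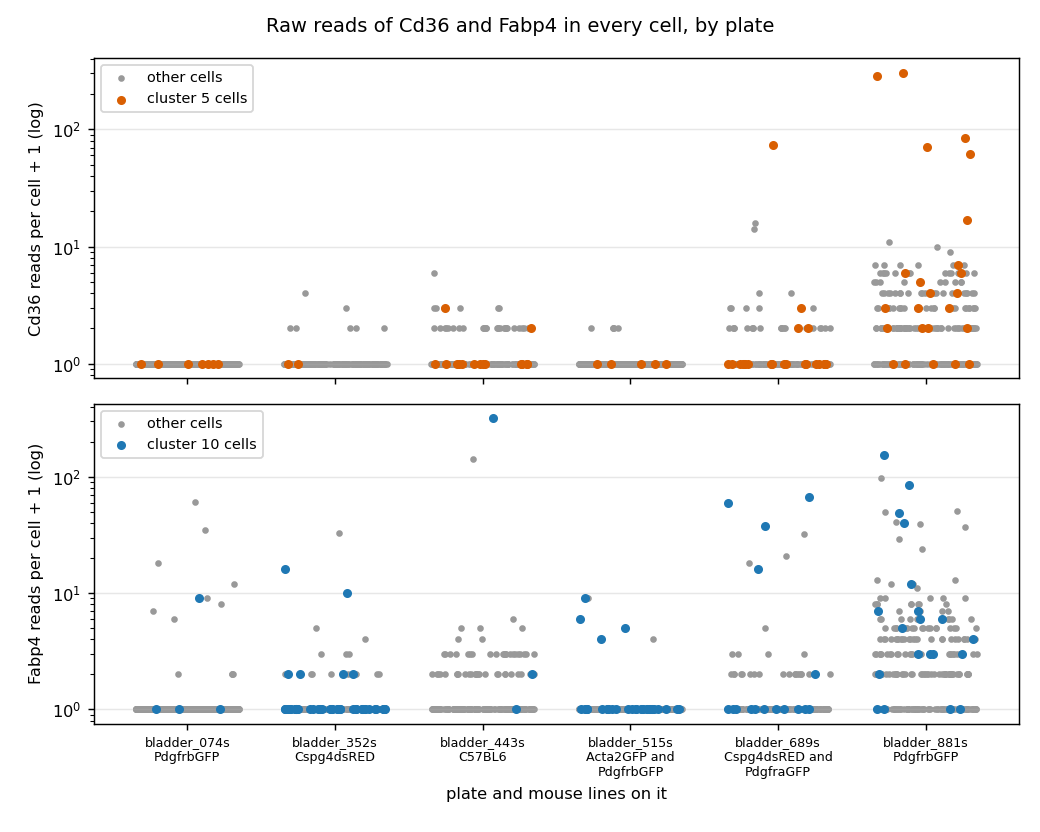
Raw reads plus 1 of Cd36 (top) and Fabp4 (bottom) in every cell on a log axis, by plate and the mouse lines on it, with cluster 5 cells coloured in the top panel and cluster 10 cells in the bottom panel. On plate bladder_881s 61.5% of cells hold a Cd36 read and 68.7% a Fabp4 read, against 0% and 3.56% on plate bladder_074s, and the highest Cd36 cells are cluster 5 cells.

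Across lines, in clusters 6 to 8 weighted equally, Apoe ran from 133.9 in C57BL6 through 440.5 in Acta2GFP, 442.7 in PdgfraGFP and 545 in PdgfrbGFP to 859.9 in Cspg4dsRED. Apod ran from 127.8 in Acta2GFP to 995 in Cspg4dsRED, and Pltp from 521 in PdgfrbGFP to 1095 in Cspg4dsRED, with the other lines at 296.3 to 390.1 and at 524 to 605. Abca1 ran from 58.5 (PdgfrbGFP) to 136.997 (PdgfraGFP), and Lpl from 34.2 (C57BL6) to 249.6 (PdgfraGFP). In these means Cspg4dsRED, with 3 cells in cluster 6, was highest for the 3 secreted carriers and PdgfraGFP for the exporter and the lipase. Apoe, Pltp and Lpl kept that line highest in each of clusters 6 to 8. Apod in Cspg4dsRED was below C57BL6 and PdgfrbGFP in cluster 7 (131.7 against 208.7 and 198.6). Abca1 in PdgfraGFP was the lowest line in cluster 6, at 37.1. Since the lines were sorted by different reporters or antibodies, line and sort cannot be told apart, and line and plate only in part.

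Plates also differed within 1 line and cluster. Among the PdgfrbGFP cells of cluster 3, Pltp had levels of 729 on plate bladder_074s (99 cells), 1432 on plate bladder_515s (78 cells) and 713 on plate bladder_881s (46 cells), and the median depths of these cells were 291755, 109843 and 427914 reads. Apoe had 133.6, 54.1 and 91.7, Apod 787, 541 and 555, Lpl 117.4, 125.2 and 75.1, and Abca1 18.99, 26.5 and 46.02 on the same plates. When these cells were divided by depth into a shallow set (median 125248 reads) and a deep set (median 405551 reads), the Pltp level was 1251 in the shallow cells and 689.2 in the deep cells, a ratio of deep to shallow of 0.551. This division was also one by plate, since the cells of plate bladder_515s were the shallowest, and within plates, divided at each plate's median, the Pltp ratio was 0.755 to 0.880. Over all plates the same ratio was 0.735 for Apod, 0.941 for Lpl, 1.18 for Abca1 and 1.57 for Apoe. Within plates it was 0.480 to 1.24 for Apod, 0.843 to 1.69 for Lpl and 0.954 to 1.33 for Abca1. For Apoe it was 0.467 to 1.01 within plates, so the rise with depth over all plates did not repeat there. Over all cells the highest number of reads per exon base was 0.785 for Apoe, 0.766 for Apod and 0.717 for Pltp, and 0.124 for Lpl and 0.0433 for Abca1. No cell held more than 1 read per exon base of these genes, counted over the exons of all annotated transcripts. The authors removed reads that their methods call doublets before counting. Whether that removal limited the counts of the abundant short genes was not tested. With all cells thinned to the same depth, the Pltp log2 fold change in cluster 10 was -4.95 (adjusted p = 1.03e-06, edgeR).

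**Figure D4:**
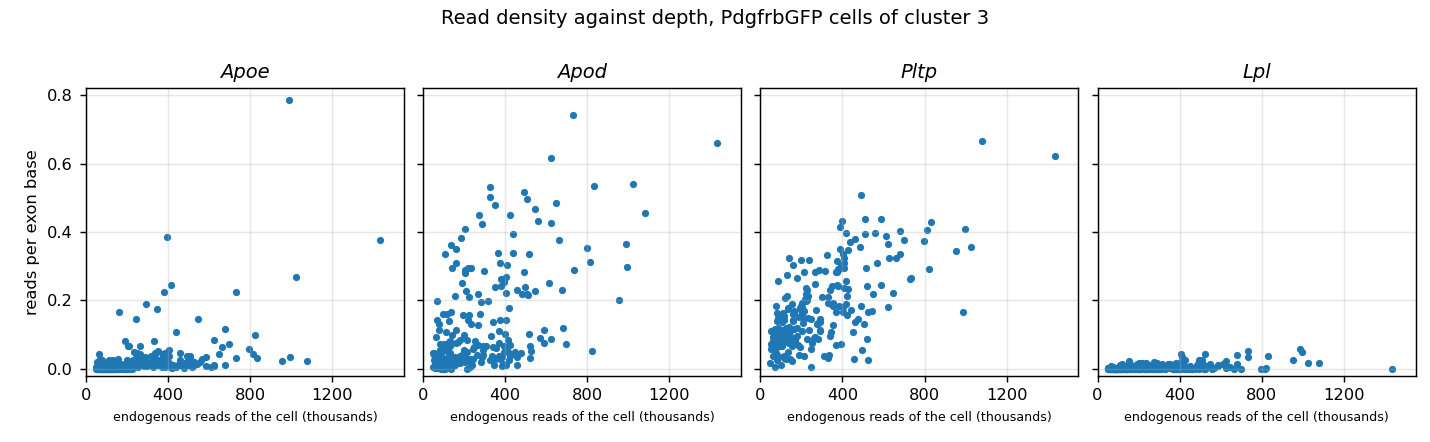
Reads per exon base of Apoe, Apod, Pltp and Lpl in each PdgfrbGFP cell of cluster 3 (vertical axis) against the endogenous reads of the cell (horizontal axis). The Pltp points rise less than in proportion to depth, with a level ratio of deep to shallow cells of 0.551 over all plates and of 0.755 to 0.880 within plates, and the Lpl points stay near 0.

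The other genes of lipid metabolism were compared in cluster 10 as well. For each of 8 lists the numbers passing are set beside the median log2 fold change, which was -0.81 over all genes tested in cluster 10 against fibroblasts, where 6.06% of genes passed as lower and 2.28% as higher. Lists with 1 gene passing of 16 to 18 are near those shares. Of 20 genes of cholesterol efflux and transfer, all tested, 3 passed as lower and 0 as higher, with a median of -2.43. They were Cyp27a1 (log2 fold change -5.99, SE 1.18, adjusted p = 0.00303, edgeR), which makes 27-hydroxycholesterol, Abca8a (-5.80, SE 0.98, adjusted p = 0.000745), a relative of Abca1, and Npc2 (-3.05, SE 0.69, adjusted p = 0.00902), the cholesterol carrier of the lysosome.

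Of 14 lipoprotein receptors and regulators tested, 1 passed as higher and 2 as lower, with a median of -0.14. Sort1, the sorting receptor sortilin, rose by 6.22 on the log2 scale (SE 1.07, adjusted p = 0.000856, edgeR). Lrp1, the large remnant receptor that binds apolipoprotein E, fell by 2.32 (SE 0.40, adjusted p = 0.000832). Of 6 further apolipoproteins tested out of 22, Apol9a and Apol9b passed as lower, with 1 and 2 reads in cluster 10 against 879 and 1409 in the fibroblasts, and Clu (clusterin) passed as higher (log2 fold change 2.45, adjusted p = 0.0260) in 3 of 4 lines, a gene named after its values were seen.

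Of 18 nuclear receptors and cofactors tested, 3 passed as lower and 1 as higher, with a median of -1.72. Pparg, the receptor that drives fat cell formation, had 19 reads in cluster 10 against 12878 (log2 fold change -6.81, adjusted p = 0.0273, edgeR). Nr1h3, the liver X receptor that drives Abca1 and Apoe in other cells, fell by 5.00 (adjusted p = 0.0425) and Insig1, which holds back sterol synthesis, by 4.78 (adjusted p = 0.0468), while Ppargc1a, a cofactor of mitochondrial genes, rose by 6.21 (adjusted p = 0.0443). Of 17 genes of fatty acid uptake and binding tested, 1 passed as lower and 1 as higher, with a median of 0.07. Cav2, a caveolar protein, rose by 3.13 on the log2 scale (adjusted p = 0.0193). Scd1, which makes monounsaturated fatty acids, was the 1 of 16 triglyceride storage genes that passed (fell by 3.96, SE 0.86, adjusted p = 0.00671, median -1.41), and Lpin2, a phosphatidate phosphatase, the 1 of 18 lipases and regulators (fell by 5.03, adjusted p = 0.04996, median -1.61). Of 18 genes of cholesterol synthesis 0 passed in edgeR (1 at an unadjusted p below 0.05, 1 by DESeq2, 0 by limma), with a median of -0.59. With the median gene set to 0, Lrp1 (log2 fold change -1.51), Apol9a, Apol9b, Npc2, Lpin2, Nr1h3, Pparg and Insig1 were among the genes that lost the call. The call held in 3 of 7 alternatives for Insig1, 4 of 7 for Nr1h3 and Lpin2 and 5 of 7 for Pparg. It held in 3 of 5 for Apol9a and Apol9b and in 6 of 7 for Lrp1 and Npc2.

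In cluster 5, where 0.879% of all genes passed, only 1 gene of these lists did, Rbp4, the plasma carrier of retinol, which rose by 4.75 on the log2 scale (SE 0.50, adjusted p = 0.00136, edgeR) in 4 of 4 lines. DESeq2 called 18 list genes there and limma 4. The efflux list, which Abca1 belongs beside, had a median of -1.78 there, against -0.69 for all genes, and 0 of its 18 tested genes passed in edgeR (4 at an unadjusted p below 0.05, 3 by DESeq2, 0 by limma). Among the other clusters, Stra6, the cell surface receptor for that carrier, rose by 6.59 in cluster 4 (SE 0.88, adjusted p = 7.03e-11), the cluster with the most Apod, in both lines. Hsd17b7 passed as lower in cluster 2, where it had 0 reads against 2490, and Cav1 passed as lower in cluster 9 (log2 fold change -3.31, adjusted p = 0.00620), a call that held in 1 of 6 alternatives. Over all genes, 0.746% passed in cluster 4, 0.198% in cluster 2 and 0.0454% in cluster 9. In cluster 2 DESeq2 called 32 list genes and limma 24, against 1 in edgeR. In clusters 1, 3, 6, 7, 8 and 11 together, 0 list genes passed in edgeR, with 79 differences at an unadjusted p below 0.05, 38 called by DESeq2 and 0 by limma.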

How the data were processed

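Single cells of mouse bladder were sequenced with Smart-seq2, single reads of 50 bases, and the authors deposited 1 table of raw, whole-number counts, with genes in rows and cells in columns. According to the study's methods, reads were trimmed with trim galore, mapped to GRCm38 with TopHat2, cleared of doublets with samtools and counted with featureCounts, and cells with at most 50000 counts, with too few or too many genes, with endothelial or immune signatures, or without Pdgfra and Pdgfrb, were removed. The annotation release and the strand setting are not given in the sources used here. The table held 46517 gene rows, 92 rows of ERCC spike-in RNA and 0 columns without a sample. GENCODE M21 gave symbols for 46005 identifiers and left 512 without one.

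For each comparison the counts of a line's cells were added up within a class, for lines with at least 3 cells in both classes, and tested with edgeR 4.0.16 in R 4.3.3 (TMM scaling, filterByExpr, quasi-likelihood F-test, the line as a block), with Benjamini-Hochberg adjustment over all genes tested. The labels name no animal, so the line served as the unit on the assumption that lines were different mice. A gene passed at an adjusted p below 0.05 and a log2 fold change of at least 2 (clusters 10 and 5, after the thresholds of the study) or at least 1 (other clusters). The 7 members passed the filter on low counts in 11 comparisons, except Cd36, which passed in 8. Shares of cells have exact Clopper-Pearson 95% intervals, which with the limit from 3 counts cover counting error only, on cells thinned to 50000 reads, for which 6 cells were too shallow. Alternatives were DESeq2 1.42.0, limma 3.58.1 on log2(mean level + 1), other scalings, no filter, no block, more cells per sum, sums per plate, thinned cells and each line left out. The procedure was tested on simulated data. Members, lists and markers were chosen with earlier results of these data known. All members are named, and of each list at most 3 genes per direction that passed with 1 sign in every line, except that some genes counted in the lists are not reported here. Likeness is the Pearson r over 43 sums of log2(CPM + 1) centred within lines. Other tools were Python 3.11.15, numpy 2.4.6, pandas 2.3.3, scipy 1.17.1 and matplotlib 3.10.9.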

Additional observations from a re-analysis of the deposited data

Results flagged for a closer look

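A line standing far from the other lines of a cluster was looked for in 56 groups of a gene and cluster with 4 or 5 lines, of which 7 were found. The number that chance would give with such levels, not transformed and in part near 0, was not determined. Apoe in cluster 5 was at 30.7 reads per 500000 in PdgfraGFP (22 cells), with the other lines at 133.4 to 151.2. In cluster 8, Cspg4dsRED (14 cells) had the highest Apod level, 1943 against 208.9 to 579, and the highest Pltp level, 1125 against 314.7 to 424. Cd36 stood at 2.13 in cluster 2 of PdgfrbGFP (19 cells), with the other lines at 0 to 0.468, and at 2.46 in cluster 7 of PdgfraGFP (31 cells), with the others at 0 to 0.536. Fabp4 stood at 13.1 in cluster 8 of PdgfraGFP (19 cells), with the others at 0 to 1.29, and at 278.1 in cluster 10 of C57BL6 (3 cells), with the others at 1.59 to 16.4.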

How the results depend on the processing

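In cluster 10 the number of members passing was 4 to 6 under each alternative, against 4. In cluster 5, against 1 (Apod), it was 0 with the median gene at 0, 0 with at least 10 cells per sum, 2 (Apod and Cd36) with DESeq2, and 0 to 1 with a line left out. Over the 9 other clusters, against 5, it was 13 with the median gene at 0, 8 without the filter on low counts, 0 with no replicate block (the paired design by line dropped), 2 with at least 10 cells per sum, where only 5 comparisons could be fitted, 1 with any line left out (Apod in cluster 7, where 4 to 7 comparisons could be fitted and those of clusters 4 and 9, which hold 3 of the 5, were not), and 4 to 6 otherwise. Without the replicate block Apod in cluster 5 still passed and the number in cluster 10 stayed within 4 to 6. In the tests of any difference between fibroblast clusters, against 2, leaving out a line gave 2 to 4, and 1 to 3 without cluster 5. Fabp4 in cluster 5, at a log2 fold change of -0.35, turned positive with the median gene at 0 (0.35), limma (0.12), no replicate block (0.69), at least 10 cells per sum (0.33) and sums per plate (0.31), and ran from -1.40 to 0.44 with a line left out, never passing. Leaving out plate bladder_881s, chosen after seeing the data, gave 4 members in cluster 10 and 1 in cluster 5. Over all genes, 438 to 2895 passed in cluster 10 (1156 in the design used, 2895 with DESeq2, 438 without Cspg4dsRED) and 87 to 1349 in cluster 5 (1349 with DESeq2, 621 with sums per plate). Most shares of cells moved beyond their interval under another depth or minimum, since both depth and the minimum of reads set a share. The cause of the other changes was not tested. Cd36 and Fabp4, with at least 10 reads in 10 and 33 of 1479 cells, rest on few cells, and the part of depth in this was not tested.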

Other observations

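The genes whose pattern over 43 sums of a line and cluster was most like that of each member, among 15807 genes, are given by Pearson r as a description, since the sums share libraries and depth. Apod went with Dpep1 (0.89), Itgbl1 (0.85) and Fmo2 (0.81), and Pltp with Lsp1, Ly6a and the collagen gene Col1a1 (0.89 each). Apoe went with Dhrs3 (0.70), Laptm4a (0.70) and Steap3 (0.69), Abca1 with Tspan11 (0.72), Cpxm1 (0.72) and Mmp2 (0.71), and Lpl with Gm38182 (0.72), Mlec (0.70) and Gm42416 (0.70). For the rare members the values rest on few cells, with Edar (0.82), Tie1 (0.80) and Nell2 (0.79) for Cd36 and Gm4524 (0.79), P3h2 (0.78) and Gm17535 (0.76) for Fabp4.

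Within lines, over thinned fibroblast cells, no member pair was closely tied. The median correlation over lines ran from -0.19 (Apoe with Pltp) to 0.14 (Abca1 with Lpl), and single lines ran from -0.33 to 0.35.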
